A study of Mus musculus with 10 samples.

Results

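The 33 genes described here make sterols and fatty acids or control their making. They were taken by symbol from the deposited gene files, which list 53697 genes, and were not picked for how they differed between the genotypes. Of these 33 genes, 18 encode enzymes between acetyl-CoA and cholesterol, 4 encode regulators or a sterol carrier, and 11 encode enzymes of fatty acid synthesis, elongation, desaturation and activation. RNA was sequenced from microglia, the resident macrophages of the brain, in 10 libraries. There were 5 libraries of female Bhlhe40-/-Bhlhe41-/- mice (double knockout, DKO) and 5 of female wild-type mice (WT), all on a C57BL/6 background. BHLHE40 and BHLHE41 are related transcription factors that repress many of their targets. The deletion is global, so other cell types of the brain lack both factors too, and the WT mice were C57BL/6J or Rosa26Stop-YFP without the strain being given for each library. Mice of at least 2 and 6 months are named, but no age is assigned to a library, and the labels do not say whether a library came from a single mouse. The p-values therefore measure the spread between these libraries, which may be partly technical. Viable cells with CD45.2 and CD11b were sorted after cells with Ly6C, Ly6G, MHCII or CD38 had been gated out. In such bulk RNA, fewer cells of a type and less RNA per cell cannot be told apart.

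Cells build cholesterol from acetyl-CoA through mevalonate, squalene and lanosterol, and fatty acids from malonyl-CoA, after which elongases and desaturases lengthen them and add double bonds. The transcription factor SREBP2 drives the sterol enzymes and SREBP1 the fatty acid enzymes. Both are held in the endoplasmic reticulum by SCAP and INSIG proteins while sterol is plentiful. Microglia take up cholesterol-rich debris such as myelin, and also make sterols and fatty acids themselves.

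The promoters of these genes are shown first because the deleted factors bind the E-box CACGTG, which reads the same on both strands. RefSeq promoters (build GRCm38.p6, 250 bases before to 50 after the start of each gene) were held for 26 of the 33 genes. Fdps, Fdft1, Sqle, Stard4, Scd1, Scd2 and Fads1 were not matched. The E-box stood in 5 of the 26 promoters (19.2%), against 8.09% of the promoters of 27025 genes. These are all genes of the promoter set, whether or not microglia express them. A gene with several promoters was counted when any of them held the motif. The shares were not compared with those of the expressed genes alone. It is printed in capitals, on the strand of each gene, in these windows of 30 bases:

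Insig1, chr5:28071299-28071328 (+): gctgggtgaggtCACGTGgctccggtggca

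Hsd17b7, chr1:169969331-169969360 (-): ggacccttgtgtCACGTGgctccgcccctc

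Dhcr7, chr7:143823223-143823252 (+): cgctgtgatgaaCACGTGgcaaaaagcagc

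Sc5d, chr9:42264381-42264410 (-): ctacgcggcgacCACGTGaccgccgcgacc

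Elovl5, chr9:77917192-77917221 (+): actgccccgagaCACGTGaaccacaggaga

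The capitals begin 101 bases before the start of Insig1, 143 before that of Hsd17b7, 164 before Dhcr7, 98 before Sc5d and 161 before Elovl5. In Insig1 and Hsd17b7 the E-box is followed by the same letters, gctccg. The sterol regulatory element that SREBP binds, searched as TCACNCCAC on both strands, stood in 1 of the 26 promoters (3.85%, against 1.44% of all), that of Hmgcs1, where it begins 137 bases before the start:

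Hmgcs1, chr13:119690204-119690233 (+): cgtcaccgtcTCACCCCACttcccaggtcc

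The CCAAT box, searched as CCAAT on both strands, was found in 22 of 26 promoters (84.6%, against 41.1% of all), and the GC box, searched as GGGCGG on both strands, in 21 of 26 (80.8%, against 38.2%). Both can share letters where they adjoin, and a match describes the sequence, not the binding of a factor.

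Total estimated counts ranged from 22483044 to 26109107 in DKO and from 23381908 to 25870859 in WT libraries. The targeted genes were looked at first. Bhlhe40 had 4, 1, 1, 7 and 8 counts in DKO libraries 1 to 5, against 4, 11, 10, 23 and 28 in WT libraries 1 to 5. These counts are few, and WT 1 had no more than DKO 1. A two-sided exact permutation test gave p = 0.0476 without adjustment. When every gene with counts was tested, Bhlhe40 did not pass (log2 fold change -1.70, edgeR adjusted p = 0.201). The deposited transcript length of Bhlhe41 was 1851 to 2719 bases in DKO and 5878 to 6133 bases in WT libraries, with no overlap. The paper states that the integrity of the mouse RNA was not measured, because the RNA was scarce. Among the WT libraries, WT 1 and WT 5 stood apart, with mitochondrial shares of 1.75% and 1.54% of counts and ribosomal RNA shares of 0.877% and 1.19%. DKO 3 had a mitochondrial share of 1.58%, and the remaining libraries had 0.986% to 1.16%. The ribosomal RNA share was 0.568% in DKO 3 and 0.341% to 0.489% in the remaining libraries. The 8 microglial markers summed to 64185 to 78322 CPM (counts per 1000000 of the library, scaled by TMM) in DKO and 70031 to 77672 CPM in WT libraries. Oligodendrocyte markers, of cells that make much cholesterol, summed to 198 to 213 CPM in DKO and 197 to 230 CPM in WT libraries, and 3 of the 8 were under 1 CPM. Astrocyte markers summed to 3.63 to 5.57 CPM in DKO and 2.59 to 5.44 CPM in WT libraries. The 7 B and T cell markers summed to 527 to 888 CPM in DKO and 420 to 678 CPM in WT libraries. Of these, Ighm averaged 622 CPM in DKO and 490 CPM in WT libraries. Neuron markers summed to 7.09 to 11.7 CPM in DKO and 5.68 to 8.43 CPM in WT libraries. Oligodendrocyte precursor markers summed to under 1 CPM in every library. The sums of 2 lists, endothelial and monocyte, did not overlap between the genotypes. The 5 endothelial markers summed to 11 to 18.6 CPM in DKO and 41.1 to 63.4 CPM in WT libraries. Pecam1 averaged 5.08 CPM in DKO and 44.2 CPM in WT libraries. Kdr did not share this difference, with 8.99 ± 3.14 CPM in DKO and 7.76 ± 2.72 CPM in WT libraries. Flt1 averaged 0.608 CPM in DKO and 0.572 CPM in WT libraries, and Cldn5 and Slco1a4 averaged under 0.1 CPM in both. The 6 monocyte markers summed to 26.8 to 35.9 CPM in DKO and 15.4 to 19.7 CPM in WT libraries, with Ly6c2 under 0.1 CPM on average. Of these markers, Ly6a averaged 19.8 CPM in DKO and 11.8 CPM in WT libraries, and Cd44 averaged 7.02 CPM in DKO and 1.28 CPM in WT libraries. The monocyte marker Plac8 ran the other way, with 0.228 CPM in DKO and 0.812 CPM in WT libraries, and S100a4 averaged 0.154 CPM in DKO and 0.201 CPM in WT libraries. The 5 border-associated macrophage markers summed to 5.96 to 26.1 CPM in DKO and 4.11 to 15.5 CPM in WT libraries. Of these, Pf4 averaged 3.91 CPM in DKO and 0.149 CPM in WT libraries without overlap (log2 fold change 4.67, edgeR adjusted p = 0.000518). Mrc1 overlapped, at 11.1 ± 8.65 CPM in DKO and 8.19 ± 4.79 CPM in WT libraries. Cd163 and Lyve1 had no counts, and F13a1 averaged under 0.1 CPM in both genotypes. The part of all these markers in the results below was not tested.

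None of the members passed the test for a difference between the genotypes. Of the 33 genes, 31 had enough counts for testing, and 0 of these passed edgeR's quasi-likelihood test at an adjusted p under 0.05 in either direction. DESeq2 and limma voom also called 0. Among all 13916 genes tested, 862 passed (6.19%), of which 604 were higher in DKO (4.34%) and 258 lower (1.85%). The share of calls that were higher was 70.1% with TMM scaling, 54.6% with upper-quartile scaling, 53.7% with library totals alone, 59.8% with a term for the sets of replicate numbers described below, and 13.04% on the deposited TPM. Without adjustment, 1 member was higher (Srebf2) and 4 were lower (Acat2, Fdft1, Lss and Msmo1) at p under 0.05, that is 5 of 31, against 23.3% of all genes in either direction. The smallest adjusted p of a member was 0.110 (edgeR, Fdft1). Genotypes did not overlap in CPM for 1 of the 31, Fdft1, against 7.62% of all genes. The median log2 fold change of the 31 genes was -0.01, and so was that of all genes tested.

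Differences above 1.5-fold lay outside the 95% interval of most members. The interval stayed within 1.5-fold either way for 21 of 31 members, against 40.5% of all genes tested, and within 2-fold for 27 of 31. It reached beyond 2-fold for Sqle, Insig1, Elovl6 and Acsl3, so a difference of that size was not excluded for these 4 genes. Standard errors of the log2 fold changes ran from 0.09 (Tm7sf2) to 0.55 (Insig1).

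**Figure D1:**
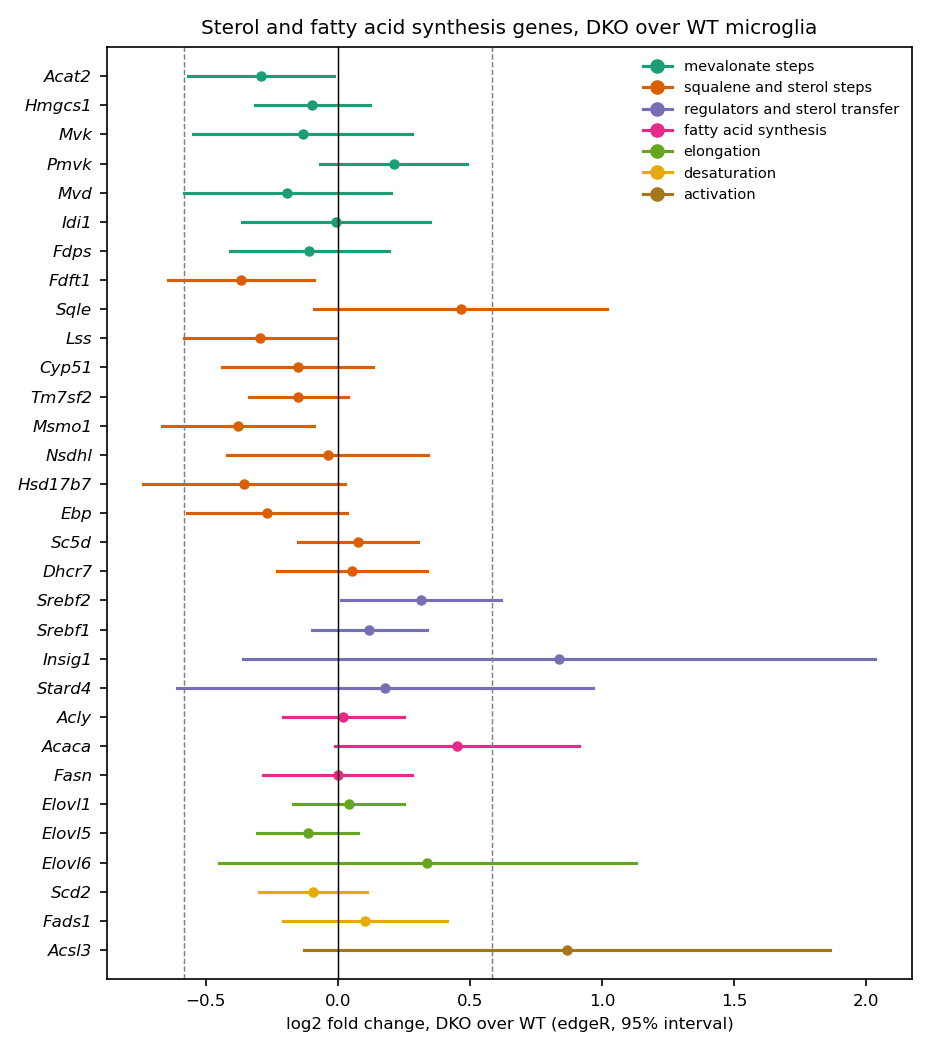
Log2 fold change of DKO over WT (horizontal axis) for the 31 tested members, coloured by role, with the 95% interval of edgeR as a line and dashed lines at 1.5-fold either way. The points run between -0.38 and 0.87, no member passed the test, and the widest intervals are those of Insig1 and Acsl3.

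Levels were compared between genes only per transcript length, in TPM (transcripts of a gene per 1000000). The deposited TPM are not comparable between libraries as they stand, because 1 short noncoding gene, Gm23935, accounted for 23.2% to 26.6% of the TPM of a DKO library, for 20.3% in WT 3 and 2.85% to 6.60% in the other WT libraries. TPM were therefore rescaled without it. The highest level of a member was that of Elovl1, which extends saturated fatty acids to very long chains, with 308 ± 18.9 TPM in DKO and 316 ± 11.7 TPM in WT libraries (SD, n = 5 each). Next came Ebp, a sterol isomerase, with 117 ± 11.8 TPM in DKO and 148 ± 19.8 TPM in WT libraries. Acly, which makes cytosolic acetyl-CoA from citrate, had 96.7 ± 18.9 TPM in DKO and 104 ± 18.6 TPM in WT libraries. Fads1, which makes polyunsaturated fatty acids, had 68.0 ± 7.35 TPM in DKO and 66.3 ± 13.9 TPM in WT libraries. Msmo1, which removes methyl groups from sterols, had 48.1 ± 4.93 TPM in DKO and 66.0 ± 15.1 TPM in WT libraries. Fads1 and Msmo1 differed by less than the SD of either in WT. Tm7sf2, a sterol reductase, had 55.5 ± 4.63 TPM in WT libraries. It stood below Msmo1 by less than the SD of Msmo1 but by more than its own. Elovl1 stood above Ebp, and Ebp above Acly, by more than their SDs.

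At the low end, Fasn, the fatty acid synthase itself, had 1.90 ± 0.244 TPM in DKO and 2.07 ± 0.412 TPM in WT libraries. Acaca, which makes malonyl-CoA, had 1.63 ± 0.811 TPM in DKO and 0.940 ± 0.135 TPM in WT libraries. The lowest of the tested members was Elovl6, which extends palmitate, with 0.493 ± 0.432 TPM in DKO and 0.307 ± 0.0946 TPM in WT libraries. The synthase and the carboxylase were thus listed far below the elongases Elovl1 and Elovl5 and the desaturases Fads1 and Scd2, of which Scd2 had 31.0 ± 4.34 TPM in DKO and 34.5 ± 3.97 TPM in WT libraries.

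**Figure D2:**
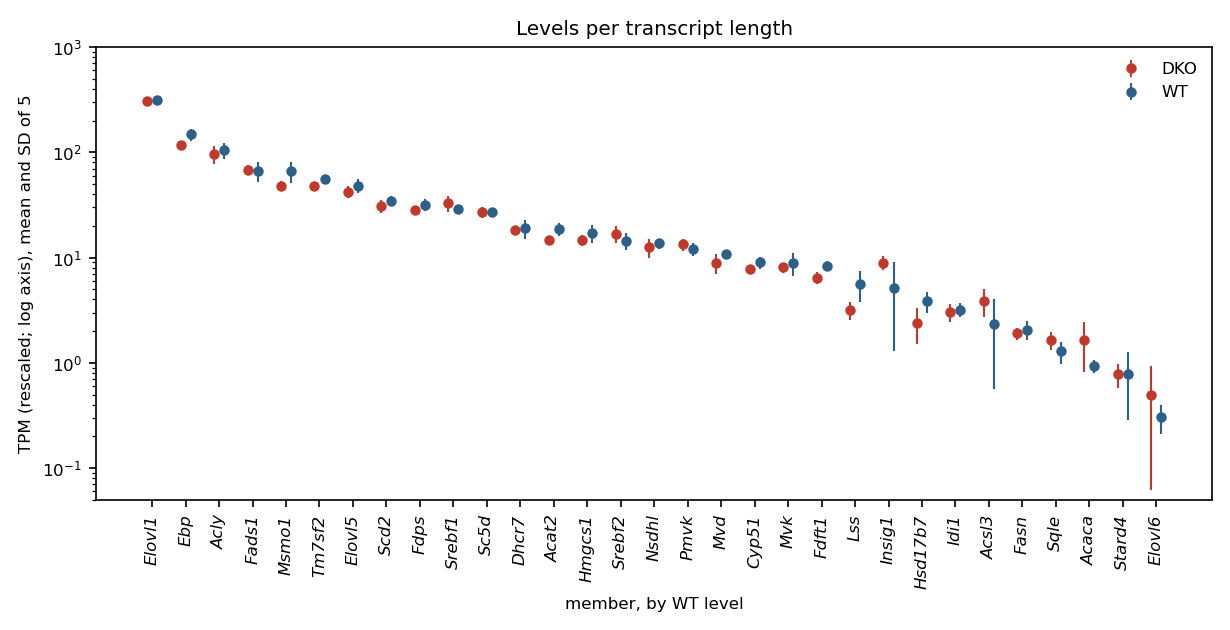
Mean TPM, rescaled without Gm23935, of the 31 tested members in DKO (red) and WT (blue) libraries on a log axis, ordered by the WT level, with the SD of 5 libraries as bars. Levels run between 316 TPM for Elovl1 and 0.307 TPM for Elovl6 in WT, and the WT bars of Insig1 and Acsl3 are wide.

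The 18 enzymes of the mevalonate and sterol steps had a median log2 fold change of -0.14, with 14 estimates below 0 and 4 above (Pmvk, Sqle, Sc5d and Dhcr7), while 7135 of the 13916 genes tested were below 0. None of the 18 passed the test. Over the alternative settings, 12 to 17 of the 18 estimates were below 0, and 12 to 16 were below the median of all genes. The other 13 tested members had a median of 0.12, with 10 estimates above 0 and 3 below, and none passed either.

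The mevalonate steps turn acetyl-CoA into farnesyl diphosphate. Of these 7 genes, Acat2, the cytosolic thiolase of the first step, had the smallest p. Acat2 was at 20.5, 19.1, 19.4, 25.5 and 21.2 CPM in DKO libraries 1 to 5, against 23.1, 21.3, 29.9, 26.9 and 28.2 CPM in WT libraries 1 to 5. DKO 4 lay among the WT libraries, and the difference did not pass (log2 fold change -0.29, SE 0.13, edgeR adjusted p = 0.195). Hmgcs1, the synthase that joins a further acetyl group, averaged 38.6 ± 2.61 CPM in DKO and 41.3 ± 4.67 CPM in WT libraries. Mvk, the mevalonate kinase, averaged 5.47 ± 0.541 CPM in DKO and 6.00 ± 1.57 CPM in WT libraries. Pmvk, the next kinase, averaged 7.52 ± 0.485 CPM in DKO and 6.50 ± 0.794 CPM in WT libraries, the only positive estimate of the 7 genes. Mvd, the decarboxylase, averaged 8.26 ± 2.05 CPM in DKO and 9.44 ± 0.398 CPM in WT libraries. Idi1, the isomerase of isopentenyl diphosphate, averaged 8.62 ± 1.37 CPM in DKO and 8.67 ± 1.55 CPM in WT libraries. Fdps, which joins these units to farnesyl diphosphate, averaged 21.7 ± 2.77 CPM in DKO and 23.4 ± 3.77 CPM in WT libraries. All 7 intervals stayed within 1.5-fold either way.

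Squalene synthase, Fdft1, commits farnesyl diphosphate to sterols and was the member with the smallest p. It was at 15.7, 11.5, 14.1, 14.7 and 16.0 CPM in DKO libraries 1 to 5, against 18.1, 16.6, 19.0, 22.2 and 16.9 CPM in WT libraries 1 to 5. All DKO libraries lay below all WT libraries, with a gap of under 1 CPM between DKO 5 and WT 2. The log2 fold change was -0.37 (SE 0.13, 95% interval -0.64 to -0.09, edgeR adjusted p = 0.110). Fdft1 (chr14:63145150-63179578 on the minus strand, GRCm38) overlaps Ctsb on the opposite strand, and the library kit did not mark strand. Ctsb, the gene of cathepsin B, averaged 6755 CPM in DKO and 4640 CPM in WT libraries, so reads of both genes cannot be told apart where they overlap. Of the other members, Mvd, Cyp51, Srebf1 and Elovl1 also overlap a tested gene on the opposite strand. Acsl3 overlaps Utp14b, which averaged under 1 CPM in both genotypes, on the same strand.

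Msmo1, the sterol demethylase named above, was singled out after its values were seen. It was at 70.4, 76.3, 83.2, 88.5 and 83.2 CPM in DKO libraries 1 to 5, against 126, 87.1, 82.5, 103 and 124 CPM in WT libraries 1 to 5. Its highest values were those of WT 1 and WT 5, and WT 2 and WT 3 lay within the DKO range. The log2 fold change was -0.38 (SE 0.13, edgeR adjusted p = 0.113). Without WT 3 it was -0.45 and passed (edgeR adjusted p = 0.0402), and without WT 1 and WT 5 it was -0.18 and did not (edgeR adjusted p = 0.471).

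Ebp, the isomerase, was at 113, 110.4, 110.5, 149 and 144 CPM in DKO libraries 1 to 5, against 141, 135, 123, 177 and 179 CPM in WT libraries 1 to 5. In both genotypes, libraries 4 and 5 were above libraries 1 to 3. Within numbers 1 to 3, Ebp averaged 111 CPM in DKO and 133 CPM in WT libraries, and within numbers 4 and 5 it averaged 146 CPM in DKO and 178 CPM in WT libraries. The pooled difference did not pass (log2 fold change -0.27, SE 0.14, edgeR adjusted p = 0.267). With a term for numbers 1 to 3 against 4 and 5 it was again -0.27 and passed (edgeR adjusted p = 0.0202), the only member to do so. The labels do not say what the numbers stand for. Over the 31 members, 24 estimates had the same sign within numbers 1 to 3 as within numbers 4 and 5.

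Of the other sterol enzymes, Sqle, the epoxidase that follows squalene synthase, averaged 3.16 ± 0.673 CPM in DKO and 2.29 ± 0.726 CPM in WT libraries (log2 fold change 0.46, 95% interval -0.09 to 1.02). Lss, which closes the rings to lanosterol, averaged 9.04 ± 0.947 CPM in DKO and 11.1 ± 1.48 CPM in WT libraries, with a log2 fold change of -0.30. Cyp51, the lanosterol demethylase, averaged 23.0 ± 2.80 CPM in DKO and 25.6 ± 3.87 CPM in WT libraries. Both estimates were below 0 and neither passed. Tm7sf2 averaged 59.8 ± 4.78 CPM in DKO and 66.3 ± 3.86 CPM in WT libraries. Nsdhl, a sterol dehydrogenase of the demethylation steps, averaged 22.4 ± 5.51 CPM in DKO and 23.0 ± 3.21 CPM in WT libraries. Hsd17b7, the sterol ketone reductase of the same steps, averaged 5.55 ± 1.05 CPM in DKO and 7.10 ± 1.25 CPM in WT libraries, with an interval that reached beyond 1.5-fold lower. Sc5d and Dhcr7 act late in the pathway and had intervals within 1.5-fold. Sc5d, the desaturase, averaged 40.2 ± 3.63 CPM in DKO and 38.1 ± 4.04 CPM in WT libraries, and Dhcr7, the reductase, averaged 30.8 ± 3.05 CPM in DKO and 29.7 ± 4.88 CPM in WT libraries.

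The 4 regulators and carriers had positive estimates, and none passed. Srebf2, the gene of SREBP2, had the smallest p of these. It was at 47.9, 46.7, 36.9, 34.2 and 33.4 CPM in DKO libraries 1 to 5, against 31.0, 38.1, 34.5, 29.6 and 27.1 CPM in WT libraries 1 to 5. DKO 1 and DKO 2 were above all other libraries, while DKO 3, DKO 4 and DKO 5 lay within the WT range. The log2 fold change was 0.31 (SE 0.14, 95% interval 0.01 to 0.62, edgeR adjusted p = 0.202), with means of 43.8 CPM in DKO and 34.5 CPM in WT within numbers 1 to 3, and of 33.8 CPM in DKO and 28.3 CPM in WT within numbers 4 and 5. Srebf1, the gene of SREBP1, averaged 65.7 ± 5.58 CPM in DKO and 60.6 ± 6.42 CPM in WT libraries, with an interval of -0.10 to 0.34. Stard4, a carrier of cholesterol between membranes, averaged 1.91 ± 0.592 CPM in DKO and 1.69 ± 0.870 CPM in WT libraries.

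Insig1, whose protein keeps SCAP in the endoplasmic reticulum, had the largest standard error of the 31 tested members, and it was singled out after its values were seen. It was at 15.7, 15.9, 20.9, 18.3 and 18.9 CPM in DKO libraries 1 to 5, against 1.98, 17.3, 14.8, 14.3 and 1.84 CPM in WT libraries 1 to 5. WT 1 and WT 5 stood far below the other 8 libraries, with 55 and 49 counts, while WT 2, WT 3 and WT 4 were close to the DKO libraries. The lowest of those 8 libraries was 7.22-fold above the higher of WT 1 and WT 5. The estimate on the log2 scale was 0.84 (SE 0.55, edgeR adjusted p = 0.381), and 0.21 without WT 1 and WT 5 (edgeR adjusted p = 0.505).

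**Figure D3:**
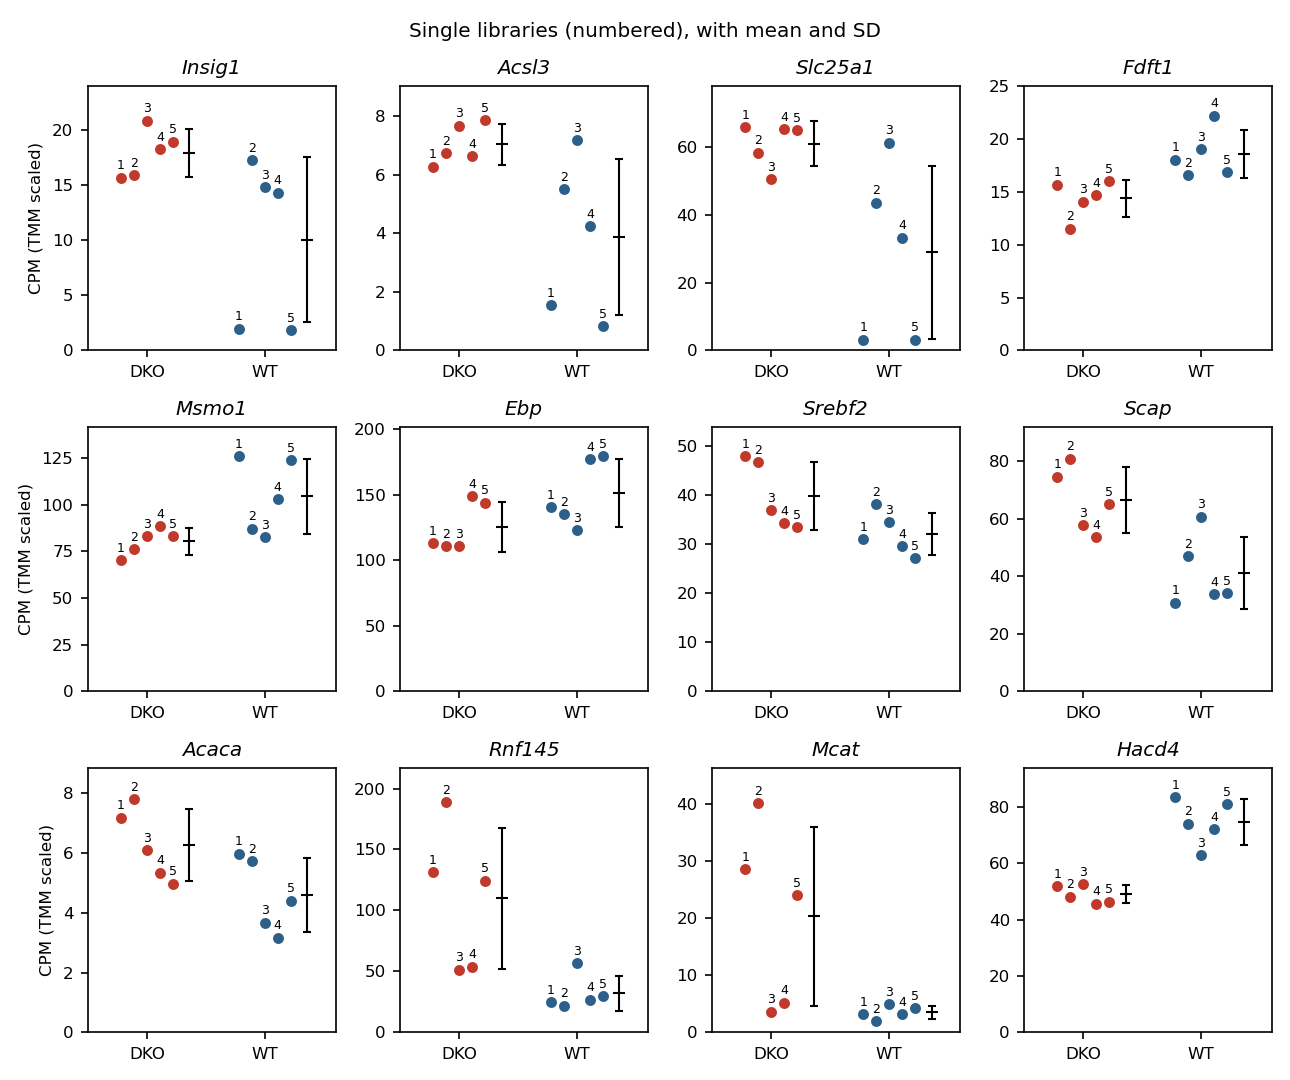
CPM in single libraries, numbered 1 to 5, of DKO (red, left) and WT (blue, right) for 7 members and, for comparison, the pathway genes Slc25a1, Scap, Rnf145, Mcat and Hacd4, with the mean and SD of 5 libraries in black and a vertical axis that starts at 0. WT 1 and WT 5 are low for Insig1, Acsl3 and Slc25a1, the genotypes separate for Fdft1 and Hacd4, and DKO 3 and DKO 4 are below DKO 1, DKO 2 and DKO 5 for Rnf145 and Mcat.

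Acsl3 activates fatty acids to acyl-CoA and sits on lipid droplets. It was at 6.28, 6.74, 7.68, 6.64 and 7.87 CPM in DKO libraries 1 to 5, against 1.55, 5.52, 7.19, 4.24 and 0.828 CPM in WT libraries 1 to 5. The 2 lowest values were again those of WT 1 and WT 5, and WT 3 lay among the DKO libraries. Its estimate was 0.87 on the log2 scale (SE 0.46, edgeR adjusted p = 0.278), and 0.32 without WT 1 and WT 5 (edgeR adjusted p = 0.459).

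Taken over all members, WT 1 and WT 5 were both at least 2-fold below every other library in 2 of the 31 members, Insig1 and Acsl3, against 3.49% of all genes tested. Both were at least 2-fold above every other library in 0 members, against 0.0144% of all genes. They were the 2 lowest libraries in 4 members (Sqle, Insig1, Fads1 and Acsl3) and the 2 highest in 4 others (Tm7sf2, Msmo1, Hsd17b7 and Elovl5). The higher mitochondrial and ribosomal RNA shares of these libraries, given above, accompany these values, and their part was not tested. DKO 3, with a mitochondrial share of 1.58%, was not low for Insig1 (20.9 CPM) or Acsl3 (7.68 CPM).

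**Figure D4:**
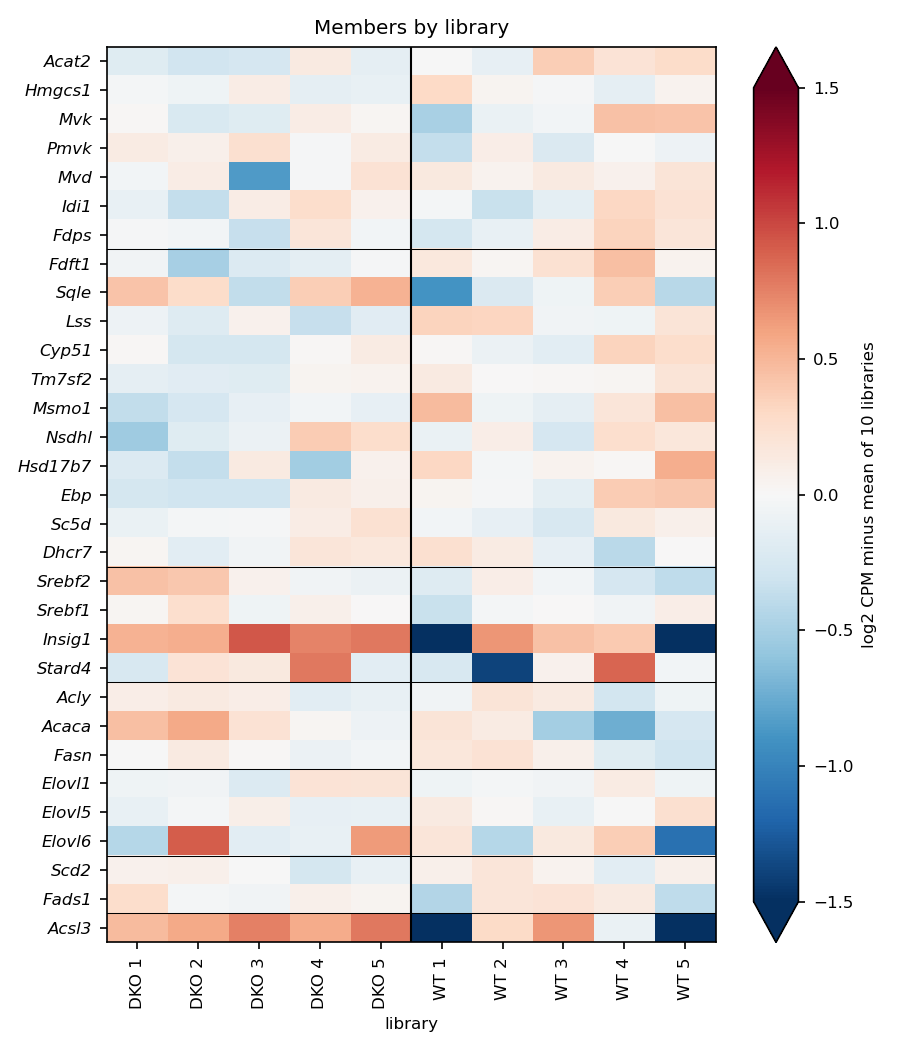
Log2 CPM of the 31 tested members minus the mean of the 10 libraries (colour, capped at 1.5 either way), with DKO libraries left of WT libraries and lines between mevalonate steps, sterol steps, regulators, fatty acid synthesis, elongation, desaturation and activation. WT 1 and WT 5 are dark blue for Insig1 and Acsl3, and most other rows vary little.

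Fatty acid synthesis proper showed little difference in its best measured gene. Acly was at 294, 301, 293, 246 and 254 CPM in DKO libraries 1 to 5, against 265, 314, 301, 227 and 262 CPM in WT libraries 1 to 5. The genotypes overlapped almost fully, and libraries 4 were the lowest of each genotype (log2 fold change 0.02, 95% interval -0.21 to 0.25). Acaca was at 7.18, 7.81, 6.09, 5.34 and 4.97 CPM in DKO libraries 1 to 5, against 5.98, 5.73, 3.68, 3.17 and 4.40 CPM in WT libraries 1 to 5. DKO 1, DKO 2 and DKO 3 were above all WT libraries and DKO 4 and DKO 5 were not (log2 fold change 0.45, SE 0.21, edgeR adjusted p = 0.226). Fasn averaged 9.98 ± 0.588 CPM in DKO and 9.98 ± 1.51 CPM in WT libraries, with an interval of -0.28 to 0.28.

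Of the elongases, Elovl1 was at 259, 261, 234, 311 and 309.8 CPM in DKO libraries 1 to 5, against 258, 265, 261, 295 and 258 CPM in WT libraries 1 to 5. Its log2 fold change was 0.04, with an interval of -0.17 to 0.25. Elovl5, which extends polyunsaturated fatty acids, was at 91.6, 96.7, 105, 90.7 and 91.7 CPM in DKO libraries 1 to 5, against 109, 100.1, 91.5, 98.3 and 117 CPM in WT libraries 1 to 5. It had the smallest p of the elongases, and the genotypes overlapped (log2 fold change -0.11, edgeR adjusted p = 0.460). Elovl6 averaged 0.687 ± 0.279 CPM in DKO and 0.542 ± 0.194 CPM in WT libraries, and its interval of -0.45 to 1.13 left its difference undetermined at this depth.

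Among the desaturases, Scd2, which makes monounsaturated fatty acids, was at 136, 136, 129, 108 and 119 CPM in DKO libraries 1 to 5, against 137, 147, 134, 116 and 136 CPM in WT libraries 1 to 5. Library 4 was the lowest of each genotype, and the log2 fold change was -0.09 (95% interval -0.30 to 0.11). Fads1 was at 192, 157, 154, 169 and 164 CPM in DKO libraries 1 to 5, against 117, 181, 184, 176 and 122 CPM in WT libraries 1 to 5. The lowest values were those of WT 1 and WT 5, and the other WT libraries lay within the DKO range (log2 fold change 0.10, 95% interval -0.21 to 0.41). Scd1 and Fads2 had too few counts for the main test. Fads2 had 11 counts over the 5 DKO libraries and 16 over the 5 WT libraries.

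Scd1, the paralog of Scd2, had 2, 6, 7, 6 and 2 counts in DKO libraries 1 to 5, against 0, 1, 0, 0 and 1 counts in WT libraries 1 to 5. All DKO libraries were above all WT libraries, though 23 and 2 counts in all are few. The ratio of rates was 12.5, with a 95% interval of 3.09 to 109 that covers counting error only. A two-sided exact permutation test gave p = 0.00794 without adjustment, the smallest that 5 against 5 libraries allow. Any gene whose genotypes do not overlap reaches this value, so it adds nothing to the separation. When every gene with counts was tested, Scd1 did not pass (edgeR adjusted p = 0.0706, log2 fold change 3.29). Near-identical paralogs can share reads, and whether any of these counts came from Scd2, whose estimate given above was not higher in DKO, was not tested.

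The deposited files also give each gene a length, the mean length of its transcripts weighted by their abundance. It varied between libraries for 27 of the tested members, and 0 of the 27 differed between the genotypes (limma on log2 length, smallest adjusted p = 0.779, and 0 with an unadjusted p under 0.05). Over all genes, 3 of 10588 did (0.0283%). Lss and Hsd17b7 had the greatest ratios. The mean length of Lss was 3839 bases in DKO and 3008 bases in WT libraries, and that of Hsd17b7 was 3137 bases in DKO and 2525 bases in WT libraries.

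Outside the 33 genes, 54 further genes of these pathways were listed, of which 43 were tested. Of these, 2 were higher in DKO and 1 was lower, against the same 4.34% and 1.85% of all genes, and the median log2 fold change was 0.04. Among 8 further sterol genes, 0 passed edgeR, and Erg28, known from yeast as a scaffold of the demethylation enzymes, had the smallest p. Erg28 was at 29.2, 29.1, 27.9, 33.02 and 37.0 CPM in DKO libraries 1 to 5, against 41.2, 30.3, 32.0, 40.02 and 46.0 CPM in WT libraries 1 to 5. DKO 4 and DKO 5 lay within the WT range, and the difference did not pass (log2 fold change -0.28, SE 0.14, edgeR adjusted p = 0.242).

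Among 15 further genes of SREBP control and sterol uptake, Rnf145, an E3 ubiquitin ligase known in mouse liver for acting on SCAP, rose. It was at 131, 189, 51.4, 53.8 and 124 CPM in DKO libraries 1 to 5, against 24.6, 22, 57.0, 26.7 and 29.6 CPM in WT libraries 1 to 5. DKO 3 and DKO 4 lay just below WT 3, and the other DKO libraries were far above all WT libraries. The log2 fold change was 1.78 (SE 0.39, edgeR adjusted p = 0.0223). The call was lost without DKO 1, DKO 2, DKO 5, WT 1, WT 2, WT 4 or WT 5 (edgeR adjusted p = 0.0508 to 0.0628), and its RefSeq promoter holds an E-box that begins 230 bases before the start. Of the 43 tested pathway genes, 35 had a promoter in the RefSeq set, and 6 of these (17.1%) held an E-box, namely Erlin1, Hacd3, Mlxipl, Rnf145, Scap and Slc25a1, of which Rnf145 alone passed the test. The window is shown for that gene:

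Rnf145, chr11:44518714-44518743 (+): agtgagcgcgaaCACGTGtcagaatggctg

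Scap, the escort of both SREBPs, was singled out after its values were seen. It was at 74.8, 81.0, 57.7, 53.7 and 65.2 CPM in DKO libraries 1 to 5, against 30.9, 47.0, 60.8, 33.8 and 34.1 CPM in WT libraries 1 to 5. WT 3 alone lay within the DKO range. Its difference missed the threshold (log2 fold change 0.69, SE 0.19, edgeR adjusted p = 0.0613). It passed with DESeq2 (adjusted p = 0.0182), limma voom (adjusted p = 0.0380) and the term for the replicate numbers (edgeR adjusted p = 0.0331), and without WT 3 (edgeR adjusted p = 0.00555).

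Among 20 further genes of fatty acid metabolism, Hacd4 fell and Mcat rose. Hacd4, of the family of dehydratases that serve elongation, was at 51.9, 48.2, 52.7, 45.7 and 46.4 CPM in DKO libraries 1 to 5, against 83.4, 74.1, 62.8, 72.0 and 81.0 CPM in WT libraries 1 to 5. All DKO libraries lay below all WT libraries (log2 fold change -0.61, SE 0.10, edgeR adjusted p = 0.00369), and the difference passed in all 25 alternative settings. Hacd4 overlaps Focad on the opposite strand, and their reads cannot be told apart in the overlap. Focad averaged 14.1 CPM in DKO and 13.1 CPM in WT libraries. Mcat, a mitochondrial transferase for malonyl groups, was at 28.6, 40.1, 3.65, 5.18 and 23.9 CPM in DKO libraries 1 to 5, against 3.24, 1.91, 4.98, 3.21 and 4.25 CPM in WT libraries 1 to 5. As for Rnf145, DKO 3 and DKO 4 were close to WT and the other DKO libraries far above it (log2 fold change 2.52, SE 0.60, edgeR adjusted p = 0.0314). Mcat overlaps Tspo on the opposite strand, which averaged 107 CPM in DKO and 66.1 CPM in WT libraries, so their reads cannot be told apart in the overlap. The call for Mcat was lost without DKO 1, DKO 2, DKO 5, WT 1, WT 2, WT 4 or WT 5 (edgeR adjusted p = 0.0642 to 0.0794). The deposited length of Mcat was 1530 to 1792 bases in DKO and 1917 bases in every WT library. These lengths did not overlap, but the difference did not pass (limma on log2 length, adjusted p = 0.425). Its bearing on the counts of Mcat was not tested.

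Slc25a1, the carrier that exports citrate from mitochondria for Acly, was low in 2 WT libraries and was also singled out after its values were seen. It was at 65.8, 58.3, 50.5, 65.3 and 65.0 CPM in DKO libraries 1 to 5, against 3.17, 43.6, 61.3, 33.2 and 3.20 CPM in WT libraries 1 to 5. The lowest of the other 8 libraries was 10.4-fold above WT 1 and WT 5, the same 2 libraries that were low for Insig1 and Acsl3. It did not pass (log2 fold change 1.08, SE 0.68, edgeR adjusted p = 0.360).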

How the data were processed

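Sorted microglia gave 5 DKO and 5 WT libraries, sequenced as read pairs with a kit that does not mark strand. According to the submitters' processing notes, the authors used cutadapt 2.6, FastQC 0.11.8 and STAR 2.5.3a with mm10. The program behind the gene values was not given in the sources used here. Per gene, each deposited file has an estimated count that was not normalized, a TPM scaled to a common total, and a length and effective length in bases.

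After rounding of the estimated counts, filterByExpr (minimum count 10) selected 13916 genes, and edgeR 4.0.16 (quasi-likelihood F-test, TMM, genotype as the only term, R 4.3.3) compared DKO with WT. Benjamini-Hochberg adjustment covered all of these genes, with a threshold of 0.05. CPM are TMM-scaled, spreads are SDs, and 95% intervals come from the fold change and its SE. Library totals ran from 22483044 to 26109107 counts, and the precision rests on this depth and on the spread between libraries (common biological coefficient of variation 28.0%), while intervals on counts alone cover counting error only. Lengths were compared with limma 3.58.1. Alternatives included DESeq2 1.42.0, limma voom, other scalings and filters, TPM, a term or block for the replicate numbers, and leaving out libraries. TPM without Gm23935 was chosen after seeing the data.

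Gene IDs were placed with GENCODE M21 (GRCm38) without their version, for 53668 of 53697. Values per library are given for members that passed, did not overlap, had the smallest p of their role or the 4 highest WT TPM, and for pathway genes that passed or had the smallest p of their list, and of the others only where the text says that they were singled out. The members, lists and rule were chosen with earlier results of these data known.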

Additional observations from a re-analysis of the deposited data

Results flagged for a closer look

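In 66 groups of member values (33 genes in each genotype), 1 library stood apart from the other 4 of its group by Dixon's test at 95%, which by chance flags about 1 in 20 groups. This was WT 4 for Elovl1, with 295 CPM, while the other WT libraries lay between 258 and 265 CPM. Of the pathway genes named in the report, Rnf145 was flagged in WT 3, with 57.0 CPM against 22 to 29.6 CPM in the other WT libraries. WT 3 was also the WT library in which Gm23935 took 20.3% of TPM.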

How the results depend on the processing

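The number of members called was 0 in both directions under 21 of the 25 alternatives. The exceptions were all calls of lower members. These were 14 with limma on log2(TPM + 1) of the deposited TPM and 14 on log2(TPM + 0.1), 1 (Ebp) with a term for numbers 1 to 3 against 4 and 5, and 1 (Msmo1) without WT 3. On the deposited TPM the median of all genes moved to -0.26 with 1 added and to -0.35 with 0.1 added, and that of the members to -0.36 and -0.40. After rescaling without Gm23935 the median of all genes was -0.05 and 0 members passed. Elovl1 was lower on the deposited TPM (-0.34 with either constant), as was Mbtps1 (-0.37 with either), against estimates near 0 in the main test. Over all genes, 862 were called in the main test, 1629 with DESeq2, 4815 and 4820 on the deposited TPM with 1 and 0.1 added, 1431 with the term for numbers, and 449 without WT 1 and WT 5. Leaving out 1 library gave 402 (without DKO 1) to 1618 (without WT 3) calls over all genes, and 0 to 1 lower members. The share of calls that were higher was 54.9% on the rescaled TPM. A replicate block left 547 calls and 0 members in either direction. The numbers do not pair the libraries by their deviations, since the correlations of same-numbered libraries ran from -0.23 to 0.20 and 1 of 5 was the best for its number. Rnf145 (adjusted p = 0.0958) and Mcat (0.149) did not pass in edgeR with that block, nor without WT 1 and WT 5 (0.110 and 0.119). Mcat also did not pass in limma voom (0.124) or robust edgeR (0.0548). The number of members with a changed length was 0 throughout. A gene that passed in neither fit was counted as kept whatever its sign, which gave 744 kept, 28 stronger and 2 reversed results for members. At this depth, the intervals of Elovl6 and Fads2, both under 1 CPM, are too wide to show a 2-fold difference.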
